A study of Mus musculus with 21 samples.

Results

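Immunoglobulin genes are the genes of the antibody chains, and 148 rows of the gene table of kidney macrophage libraries were taken here by their symbols. A row was chosen by a symbol that begins with Igkv, Ighv, Iglv, Igkc, Iglc, Ighm, Ighg or Igha, or equals Ighd, and by a total of at least 20 estimated counts over 21 libraries. The symbol rule matched 228 of the table's 34236 symbols and 148 reached the total. They were 61 heavy variable genes (Ighv) of 113 that matched, 75 kappa variable genes (Igkv) of 103, 3 lambda variable genes (Iglv), the constant genes Ighm, Ighg1, Ighg2b, Ighg2c, Ighg3, Igkc, Iglc2 and Iglc3, and Ighmbp2. Ighmbp2 lies on chromosome 19 and encodes a helicase, not an antibody chain, so it was left out of all sums, which cover 147 genes. Just inside the total were Ighv2-4 with 20.8 counts, Ighv1-47 with 22.0 and Igkv1-133 with 24.1, and just outside were Ighv2-2 with 19.0, Igkv4-78 with 15.4 and Ighv1-7 with 14.2.

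RNA was sequenced from F4/80+CD64+ macrophages that were flow sorted from digested kidneys of male C57BL/6J mice, after cells positive for a lineage panel that included Ly6G, CD3 and NK1.1 had been gated out. Macrophages high for CD11c (CD11chiMϕ), macrophages low for CD11c (CD11cloMϕ) and kidney-resident macrophages (KRM) were compared between Sham kidneys and kidneys with renal artery stenosis (RAS), in which a cuff narrows the renal artery. All groups carry the same age (24 weeks) and the same time to sort (5 hours) in the labels, which describe CD11chiMϕ and CD11cloMϕ as monocyte-derived. There were 3 libraries of CD11chiMϕ Sham, 4 of CD11chiMϕ RAS, 3 of CD11cloMϕ Sham, 4 of CD11cloMϕ RAS, 4 of KRM Sham and 3 of KRM RAS. No allele or transgene is named for these groups. The labels do not say whether libraries of a group came from separate mice, so p-values measure the spread between these libraries, which may be technical.

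An antibody has heavy chains and light chains, and each chain carries a variable domain that binds antigen and a constant region. A developing B cell joins a variable gene segment to joining (and, in the heavy chain, diversity) segments by DNA recombination, and the descendants of that cell share the join, so the RNA of a clone carries a particular heavy and a particular light variable gene. Ighm encodes the constant region of IgM, Ighg1, Ighg2b, Ighg2c and Ighg3 those of IgG subclasses, and Igkc, Iglc2 and Iglc3 those of the kappa and lambda light chains. Plasma cells and B cells make antibody RNA, while macrophages bind antibody through Fc receptors. The genes in hand lie in the heavy chain locus (66 members, chr12:113285325-116000461), the kappa locus (76 members, chr6:67555497-70726966) and the lambda locus (5 members, chr16:19065230-19260859), on GRCm38 (mm10) with GENCODE vM21. All 139 variable members are annotated there as immunoglobulin variable genes.

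Library totals ranged from 6891177 to 18592427 estimated counts, with 14607 to 17703 genes counted. In CPM, the usual scale of counts relative to the library total, a list of 10 macrophage genes summed to between 2316 and 12148 in every library. The sorted cells' own markers were therefore present throughout. Of the B cell markers, Ms4a1 reached at most 3.21 CPM, and Pax5 was at 0 counts in 20 of 21 libraries, while Cd79b reached 115 CPM, Bank1 86.1 CPM, Cd22 27.0 CPM and Ebf1 11.1 CPM. Rag1, Rag2, Igll1 and Vpreb2, genes of V(D)J recombination and of the surrogate light chain, were at 0 in all 21 libraries, and the 7 genes of that list summed to at most 2.26 CPM. The 14 genes of the B cell list summed to 71.2 to 303 CPM, of which Cd37, which other leukocytes also express, held 38.5 to 191 CPM. A list of 12 plasma cell genes summed to between 414 and 1359 CPM. In it Jchain ran from 0.114 to 809 CPM and Xbp1 from 139 to 515 CPM. Xbp1 was at 491, 430 and 308 CPM in CD11cloMϕ Sham, the group with the lowest immunoglobulin sums. Mzb1, Pou2af1, Derl3 and Tnfrsf17 (BCMA) reached at most 14.2, 5.47, 4.54 and 1.74 CPM, and the remaining genes reached 6.44 to 128 CPM. Lists of 11 T and NK cell genes and 6 kidney tubule genes summed to 3.85 to 523 CPM and 12.9 to 6344 CPM. The part of other cells in the values given here was not tested, and in sorted bulk samples fewer cells of a type and less RNA per cell cannot be told apart.

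Some libraries need to be named before the results. The column of KRM RAS replicate 1 in the count table correlated with the same-named column of the deposited log2 table at only 0.074 over 8532 genes, where the other 20 libraries gave 0.902 to 0.976, so the results that turn on this library are also given without it. KRM Sham replicates 1 and 2 shared their variable genes to a degree that no other pair did. The overlap of variable gene usage, which is the sum over heavy and kappa variable genes of the smaller of 2 libraries' shares, was 89.1% for this pair. For the other 170 pairs among the 19 libraries with at least 200 heavy and kappa variable counts it was 0.275% to 50.3%, with a median of 19.6%. Over the variable genes the squared differences of the pair were 3.54 times those from counting error (chi-square per degree of freedom). Other pairs of KRM Sham libraries gave 45.5 to 94.7. Over all genes the pair gave 15.8 and the other pairs 6.86 to 37.4, with the lowest value for replicates 2 and 4. The pair was thus the closest in its variable genes but not over all genes. A figure legend of the study lists the Sham group sizes beside its count of mice per group, without tying a library to a mouse. If these libraries came from the same mouse, KRM Sham would hold 3 independent samples in place of 4. Both were kept, and results were repeated with their counts summed. CD11chiMϕ Sham replicate 3 had the lowest macrophage sum of all libraries and the highest sum of tubule genes, at 2316 and 6344 CPM. CD11cloMϕ Sham replicate 3 held 2174 CPM of tubule genes, beside 43.0 and 58.3 CPM in the other CD11cloMϕ Sham libraries.

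The germline sequences that the leading genes name are shown first, from the genome of the files' build, 5′ to 3′ along the coding strand. Capitals mark the stretch from the last in-frame cysteine codon to the 3′ end of the variable exon, where the third complementarity-determining region begins and where the joint to the next segment is made. Ighv11-2 and Igkv14-126 are printed over most or all of the exon because they were the only heavy and kappa genes that led in as many as 4 libraries.
Ighv11-2 (chr12:114048241-114048540, minus strand): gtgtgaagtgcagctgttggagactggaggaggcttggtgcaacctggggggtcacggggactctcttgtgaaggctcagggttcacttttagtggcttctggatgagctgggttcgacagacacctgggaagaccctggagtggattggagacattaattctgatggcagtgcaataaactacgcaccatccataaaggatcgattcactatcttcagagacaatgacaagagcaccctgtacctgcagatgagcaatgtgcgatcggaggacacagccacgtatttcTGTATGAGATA
Igkv14-126 (chr6:67896345-67896642, plus strand): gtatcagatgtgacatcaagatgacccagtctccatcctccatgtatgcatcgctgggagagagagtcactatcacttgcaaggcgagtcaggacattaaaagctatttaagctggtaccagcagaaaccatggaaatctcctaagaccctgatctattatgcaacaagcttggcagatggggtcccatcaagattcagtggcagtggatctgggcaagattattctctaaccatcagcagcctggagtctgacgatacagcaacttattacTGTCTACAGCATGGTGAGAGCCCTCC

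The last 120 bases of the variable exon are shown, marked in the same way, for the genes with the largest shares of a chain in CD11cloMϕ libraries, which ran from 46.3% to 100% of at least 20 variable counts.
Ighv6-3 (chr12:114391712-114391831, minus strand): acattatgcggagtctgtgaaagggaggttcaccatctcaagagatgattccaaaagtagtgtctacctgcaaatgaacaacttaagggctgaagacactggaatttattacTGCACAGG
Igkv10-96 (chr6:68631963-68632082, minus strand): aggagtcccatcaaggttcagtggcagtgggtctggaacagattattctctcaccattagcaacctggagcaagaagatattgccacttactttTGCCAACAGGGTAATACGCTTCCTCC
Igkv3-1 (chr6:70704058-70704177, plus strand): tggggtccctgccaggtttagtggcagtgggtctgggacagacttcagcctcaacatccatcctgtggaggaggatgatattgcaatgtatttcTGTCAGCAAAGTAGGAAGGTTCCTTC
Igkv19-93 (chr6:68736297-68736416, minus strand): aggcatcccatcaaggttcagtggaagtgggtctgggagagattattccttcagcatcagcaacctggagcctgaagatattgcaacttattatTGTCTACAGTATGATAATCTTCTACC
Ighv9-3 (chr12:114140692-114140811, minus strand): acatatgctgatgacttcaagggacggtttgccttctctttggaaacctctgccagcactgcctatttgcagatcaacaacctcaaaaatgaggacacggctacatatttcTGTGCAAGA
Igkv3-4 (chr6:70672258-70672377, plus strand): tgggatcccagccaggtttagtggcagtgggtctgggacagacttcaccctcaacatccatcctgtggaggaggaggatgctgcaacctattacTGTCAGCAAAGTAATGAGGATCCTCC
Ighv7-3 (chr12:114153180-114153299, minus strand): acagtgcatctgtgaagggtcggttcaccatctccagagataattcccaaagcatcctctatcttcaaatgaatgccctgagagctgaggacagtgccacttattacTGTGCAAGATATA
Igkv3-2 (chr6:70698948-70699067, plus strand): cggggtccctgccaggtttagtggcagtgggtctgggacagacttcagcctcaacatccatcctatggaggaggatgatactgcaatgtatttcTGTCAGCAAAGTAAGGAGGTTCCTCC

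Counts of near-identical genes are uncertain, because a read that fits several genes can be split between them. Over the last 250 bases of the exon, 53 of 139 variable members had another member at least 95% identical, and the median identity to the nearest member was 93.6%. A lambda pair above this median and a kappa pair at it are shown by the last 150 bases, where capitals now mark the bases that differ, because Iglv1 led every lambda reading and Igkv10-96 led in 2 libraries. Iglv1 and Iglv2 were 97.2% identical over 250 bases.
Iglv1 (chr16:19085017-19085166, minus strand): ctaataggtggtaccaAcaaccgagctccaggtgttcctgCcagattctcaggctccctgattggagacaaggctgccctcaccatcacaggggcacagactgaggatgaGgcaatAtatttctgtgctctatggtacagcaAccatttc
Iglv2 (chr16:19260401-19260550, minus strand): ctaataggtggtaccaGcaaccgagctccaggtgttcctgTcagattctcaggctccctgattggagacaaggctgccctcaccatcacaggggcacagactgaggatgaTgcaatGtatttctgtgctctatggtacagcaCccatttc
Igkv10-94 (chr6:68704508-68704657, minus strand): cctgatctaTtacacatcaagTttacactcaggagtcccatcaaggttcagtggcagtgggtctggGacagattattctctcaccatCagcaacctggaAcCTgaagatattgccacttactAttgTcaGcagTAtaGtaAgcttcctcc
Igkv10-96 (chr6:68631963-68632112, minus strand): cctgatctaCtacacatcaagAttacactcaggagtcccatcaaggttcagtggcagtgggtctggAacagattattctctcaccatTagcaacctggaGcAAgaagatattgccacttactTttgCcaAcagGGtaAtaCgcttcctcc
Igkv10-94 and Igkv10-96 were 93.6% identical. Genes named below differed in this respect: Ighv11-2 was 76.4% identical to its nearest member Ighv4-1, Igkv14-126 was 90.0% identical to Igkv14-111, and Igkv19-93 was 78.0% identical to Igkv10-94. At the other end, Igkv8-19 was 98.0% identical to Igkv8-28, Ighv14-2 96.8% to Ighv14-1, Ighv1-53 and Ighv1-72 96.4% to each other, Igkv1-110 96.4% to Igkv1-117, Igkv6-23 96.0% to Igkv6-13 and Igkv4-59 95.6% to Igkv4-68, so their counts are uncertain. The same holds for other genes named below. Ighv1-50 and Ighv1-26 were 97.2% identical to another member, and Ighv1-22, Ighv1-34, Ighv1-80 and Ighv10-3 96.4%. Ighv1-64, Ighv1-75 and Igkv4-55 stood at 96.0%, Ighv1-77 at 95.6%, and Ighv1-55 and Ighv1-76 at 95.2%.

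Immunoglobulin genes were counted in every library, and their sum ran from 237 CPM in the lowest library to 5231 CPM in the highest. In CD11cloMϕ Sham the 147 genes summed to 257, 321 and 237 CPM. In CD11cloMϕ RAS they summed to 737, 769, 523 and 451 CPM, above all CD11cloMϕ Sham libraries. The 11 T and NK cell genes moved with them, at 3.85 to 8.20 CPM in CD11cloMϕ Sham and 15.6 to 62.2 CPM in CD11cloMϕ RAS, and their part was not tested. KRM Sham was the most even group relative to its mean, at 1666, 1413, 1842 and 1398 CPM. CD11chiMϕ Sham held 996, 2303 and 1849 CPM and CD11chiMϕ RAS 3645, 5231, 853 and 930 CPM, so that these groups overlapped. KRM RAS replicate 1 held 4302 CPM and replicates 2 and 3 held 668 and 739 CPM, so that 1 library stood above and 2 stood below all KRM Sham libraries. The group means were 1716 ± 664 CPM for CD11chiMϕ Sham (SD, n = 3), 2665 ± 2148 for CD11chiMϕ RAS (n = 4), 272 ± 43.7 for CD11cloMϕ Sham (n = 3), 620 ± 157 for CD11cloMϕ RAS (n = 4), 1580 ± 214 for KRM Sham (n = 4) and 1903 ± 2078 for KRM RAS (n = 3). Without KRM RAS replicate 1 the mean of KRM RAS was 704 CPM. The share of all counts that these sums make up was 0.0237% to 0.523%.

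**Figure D1:**
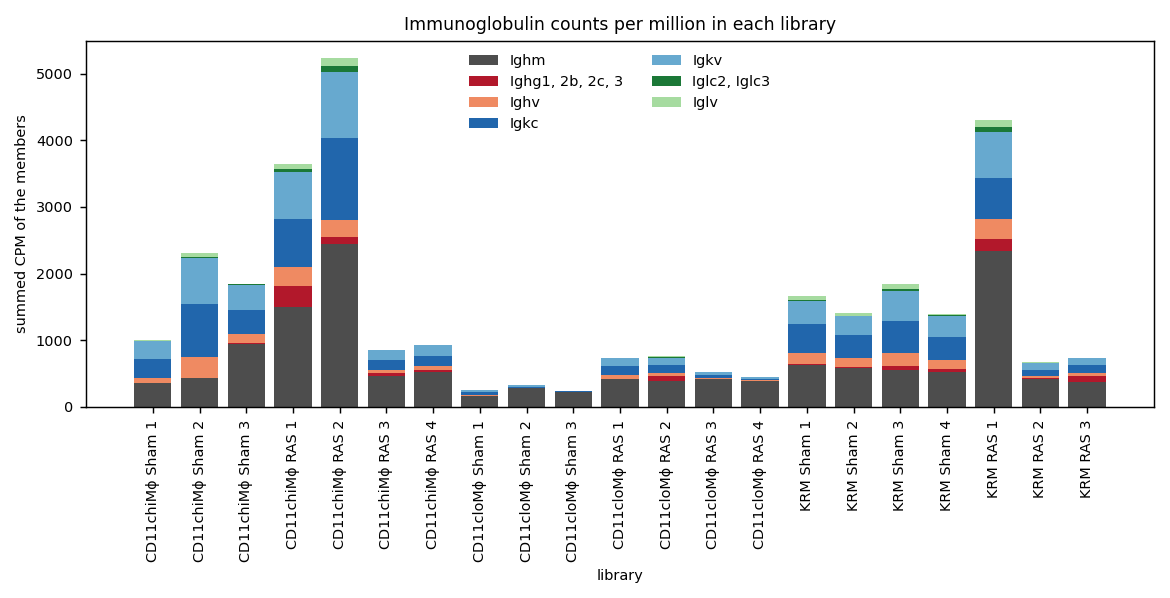
Stacked bars give the summed CPM of the immunoglobulin members in each of 21 libraries, split into constant genes (Ighm, the 4 gamma genes, Igkc, Iglc2 and Iglc3) and variable genes (Ighv, Igkv, Iglv). The 3 highest bars are CD11chiMϕ RAS replicate 2 at 5231, KRM RAS replicate 1 at 4302 and CD11chiMϕ RAS replicate 1 at 3645 CPM, and the 3 lowest are the CD11cloMϕ Sham libraries.

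Ighm, the IgM constant gene (chr12:113418558-113422730, minus strand), held 131770 of the 291540 counts summed here, in which Igha, Ighd and Iglc1 have no counts. It was at 161, 277 and 228 CPM in CD11cloMϕ Sham and at 417, 388, 416 and 381 CPM in CD11cloMϕ RAS. KRM Sham libraries held 628, 589, 553 and 528 CPM of Ighm. CD11chiMϕ Sham libraries held 364, 426 and 946 CPM and CD11chiMϕ RAS libraries 1499, 2448, 467 and 521 CPM. KRM RAS libraries held 2331, 413 and 376 CPM. The 3 libraries with most Ighm were the 3 that had the highest sums.

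Igkc, the kappa constant gene (chr6:70726435-70726966, plus strand), spread much more widely than Ighm. It was at 35.4, 24.3 and 2.50 CPM in CD11cloMϕ Sham and at 128, 121, 45.1 and 25.8 CPM in CD11cloMϕ RAS. KRM Sham libraries held 437, 350, 490 and 351 CPM, and KRM RAS libraries 612, 89.4 and 112 CPM. CD11chiMϕ Sham libraries held 284, 791 and 355 CPM, and CD11chiMϕ RAS libraries 719, 1226, 137 and 144 CPM. CD11cloMϕ Sham replicate 3 stood lowest, with 22 Igkc counts beside 2000 Ighm counts.

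The ratio of Ighm to Igkc counts, which is not corrected for length and so compares libraries rather than genes, was higher in KRM after RAS. It was 1.13 to 1.68 in KRM Sham and 3.35 to 4.62 in KRM RAS, so those groups did not overlap. In CD11cloMϕ it ran from 4.55 to 90.9 in Sham and from 3.22 to 14.8 in RAS, and the lowest ratio of all, 0.539, was in CD11chiMϕ Sham replicate 2. The counts of heavy variable genes per 100 Ighm counts went the other way: 75.1 in CD11chiMϕ Sham replicate 2, 21.7 to 35.4 in KRM Sham, 8.65 to 12.6 in KRM RAS, and 0.464 and 0.500 in CD11cloMϕ Sham replicates 2 and 3. In those last libraries Ighm RNA was read with hardly any heavy variable RNA, at 11 and 10 counts. Ighm made up 18.5% to 95.9% of the members' counts in a library. Igha, the IgA constant gene, has no counts in these shares and ratios. In the deposited log2 table Igha stood above Ighm in all KRM Sham libraries, at 10.5 to 10.99 against 9.81 to 9.99. It did so too in CD11chiMϕ Sham replicates 1 and 2, at 9.57 and 11.9 against 8.94 and 9.39, and stood below Ighm elsewhere. Igj, the symbol in the table for Jchain, which joins IgM and IgA units and is no member, was at 325 to 449 CPM in KRM Sham, 51.8 to 389 CPM in KRM RAS (51.8 and 52.2 CPM without replicate 1), 168 to 809 CPM in CD11chiMϕ Sham, 63.5 to 508 CPM in CD11chiMϕ RAS, 0.114 to 30.4 CPM in CD11cloMϕ Sham and 5.66 to 68.3 CPM in CD11cloMϕ RAS.

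The gamma constant genes, which encode IgG heavy chains, were read unevenly, and a different subclass led in different libraries of a group. Their sum was 0, 0 and 1 count in CD11cloMϕ Sham, where 0 allows up to 3 counts, and reached 2997 counts (317 CPM) in CD11chiMϕ RAS replicate 1. Ighg1 led in KRM Sham replicates 1, 2 and 4, with 93.6%, 84.8% and 94.0% of the gamma counts, and was at 0 in KRM Sham replicate 3 and in every KRM RAS library. Ighg2b led in CD11chiMϕ RAS replicate 1 with 80.1% and in CD11chiMϕ Sham replicate 3 with 97.2%. Ighg2c made up all 610 gamma counts of CD11cloMϕ RAS replicate 2 and led in KRM RAS replicate 1 with 72.9%. Ighg3 led in CD11chiMϕ RAS replicate 4 with 79.1%. Of the lambda constant genes Iglc2 reached 67.3 CPM in CD11chiMϕ RAS replicate 2 and Iglc3 reached 18.5 CPM there.

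Variable genes were not shared evenly across libraries. None of the 139 was counted in all 21 libraries, and the median variable gene was counted in 7. For 49 of them over 50% of the CPM summed over all libraries came from a single library, and 47 had counts in at most 5 libraries. The most widely counted were Iglv1 in 20 libraries, Igkv14-126 in 19 and Ighv1-53 in 17. A library's count of members other than Ighmbp2 with at least 1 count was 6 to 15 in CD11cloMϕ Sham, 23 to 41 in CD11cloMϕ RAS, 41 to 111 in CD11chiMϕ and 66 to 98 in KRM.

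For each library and chain the leading gene is the variable gene with the most counts, read where the chain had at least 20 variable counts. Shares are given with exact (Clopper-Pearson) 95% intervals, which cover counting error only. Heavy chains could be read in 19 libraries, which had 13 different leading genes, and kappa chains in 20 libraries, also with 13. Lambda chains could be read in 12 libraries, and Iglv1 led in all of them with 75.7% to 99.3%. Divided by the length of the longest annotated transcript, the same gene led in 13 of 19 heavy, 19 of 20 kappa and 12 of 12 lambda readings.

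In CD11cloMϕ 1 or 2 genes took most of each chain that could be read. In Sham replicate 1, Ighv6-3 held 83.6% of 207 heavy counts (77.8 to 88.3%), with Ighv1-77 next at 12.1%, and Igkv10-96 with 49.1% and Igkv3-1 with 46.3% held nearly all of 352 kappa counts. In Sham replicate 2, Igkv19-93 held all 158 kappa counts (97.7 to 100%), with only 11 heavy counts, 10 of them from Ighv1-9. Sham replicate 3 had 10 heavy and 17 kappa counts, too few to be read by the rule, of which Ighv11-2 took 7 and Igkv14-126 took 8.

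The 4 CD11cloMϕ RAS libraries had 4 different leaders in each chain, of which Ighv6-3 and Igkv10-96 also led in Sham replicate 1. In RAS replicate 1, Ighv9-3 held 58.7% (54.7 to 62.5%) and Ighv11-2 31.3% of 624 heavy counts, and Igkv3-4 held 46.6% and Igkv14-126 43.5% of 1096 kappa counts. In RAS replicate 2, Ighv6-3 with 41.7% and Ighv14-2 with 36.9% led the heavy chain, and Igkv4-53 with 32.1% and Igkv6-25 with 30.9% the kappa chain. In RAS replicate 3, Ighv1-42 with 36.5% and Ighv1-76 with 25.2% led, beside Igkv10-96 with 34.5% and Igkv12-44 with 33.4%. In RAS replicate 4, Ighv7-3 held 90.4% of 135 heavy counts (84.1 to 94.8%) and Igkv3-2 held 92.1% of 228 kappa counts (87.8 to 95.3%). In every CD11cloMϕ chain that could be read, 5 heavy and 6 kappa, 1 or 2 genes thus held over 50% of the counts.

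**Figure D2:**
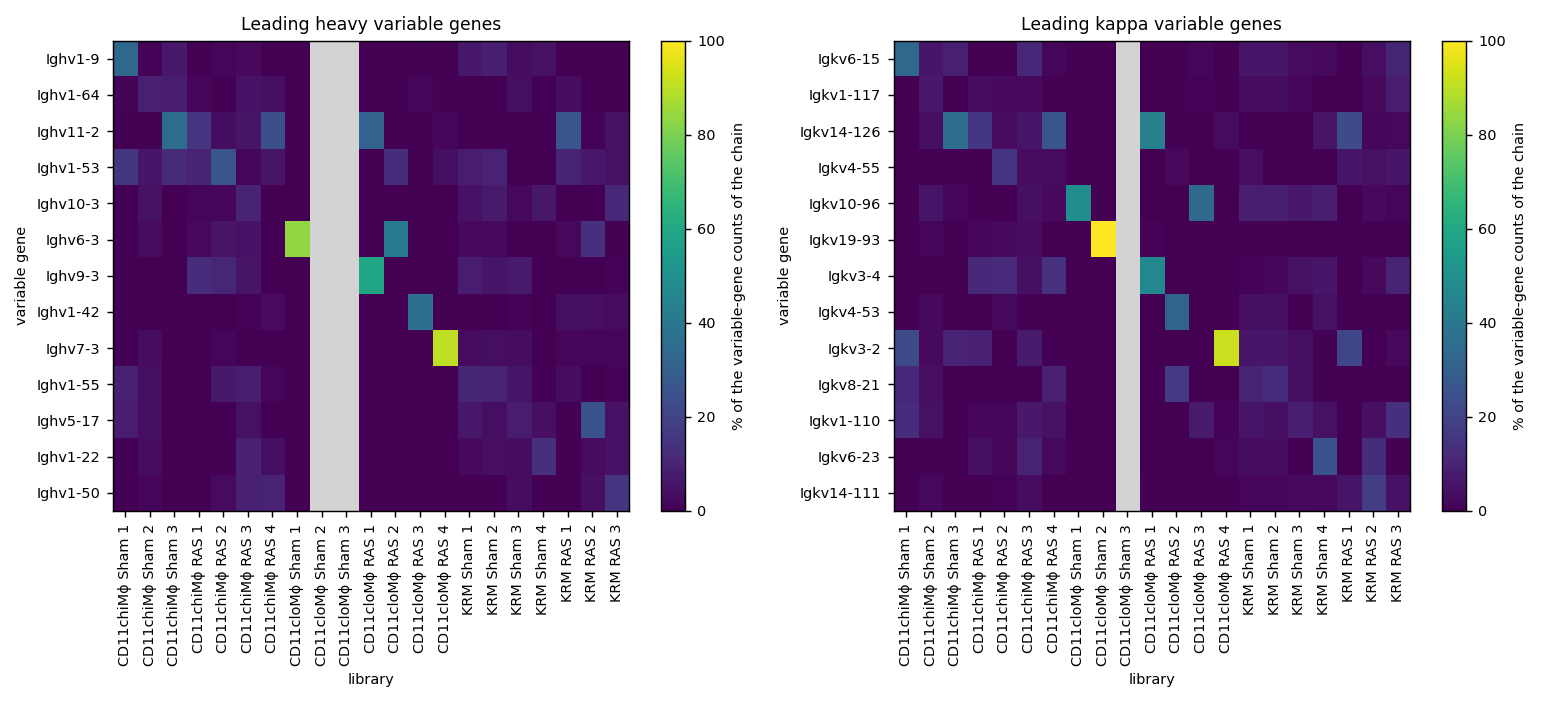
Colour gives the share, in percent, of a library's heavy (left) or kappa (right) variable counts held by each gene that led in at least 1 library, with grey where a chain had under 20 variable counts. Bright cells fall in the CD11cloMϕ columns, where Igkv19-93, Igkv3-2, Ighv7-3 and Ighv6-3 reach 100%, 92.1%, 90.4% and 83.6%, while KRM Sham columns stay at or under 25.2%.

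In KRM Sham the counts were spread over many genes. Ighv1-55 led the heavy chain in replicates 1 and 2 with 10.5% and 9.82%, Ighv5-17 in replicate 3 with 7.99% and Ighv1-22 in replicate 4 with 13.7%. Igkv8-21 led the kappa chain in replicates 1 and 2 with 9.47% and 13.3%, Igkv1-110 in replicate 3 with 8.44% and Igkv6-23 in replicate 4 with 25.2%. In KRM RAS the heavy leaders held more. Replicate 1 was led by Ighv11-2 with 26.8%, followed by Ighv1-80 with 20.8%, and by Igkv14-126 with 23.0%, followed by Igkv3-2 with 20.8%. Replicate 2 was led by Ighv5-17 with 89 of 356 heavy counts (25%), ahead of Ighv6-3 with 14.04%, and by Igkv14-111 with 18.2%, ahead of Igkv12-44 with 14.2%. Replicate 3 was led by Ighv1-50 with 15.4%, ahead of Ighv1-26 with 11.3%, and by Igkv1-110 with 13.7%, ahead of Igkv6-15 with 10.4%. Each heavy leader of KRM RAS was above every heavy leader of KRM Sham, but a single KRM Sham library, replicate 4, had a kappa leader above all those of KRM RAS.

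In CD11chiMϕ the leading shares ran from 6.90% to 35.7%. Sham replicate 1 was led by Ighv1-9 with 33.7%, with Ighv1-53 next at 15.93%, and by Igkv6-15 with 33.3%, with Igkv3-2 next at 23.0%. Sham replicate 2 was spread most evenly, with Ighv1-64 at 8.80% and Igkv1-117 at 6.90%. Sham replicate 3 was led by Ighv11-2 with 35.2% and Igkv14-126 with 35.7%, with Ighv1-53 (12.03%) and Igkv12-46 (10.1%) next. The RAS libraries were led by Ighv11-2 with 15.03% and Igkv14-126 with 15.7% in replicate 1, by Ighv1-53 with 26.5% and Igkv4-55 with 15.6% in replicate 2, by Ighv10-3 with 9.45% and Igkv6-15 with 11.0% in replicate 3, and by Ighv11-2 with 24.3% and Igkv14-126 with 26.4% in replicate 4. The genes next to these leaders were Ighv9-3 (13.1%) and Igkv8-30 (15.4%) in replicate 1, Ighv9-3 (10.7%) and Igkv3-4 (11.997%) in replicate 2, and Ighv4-1 (14.9%) and Igkv3-4 (14.2%) in replicate 4.

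The effective number of variable genes (inverse Simpson index, the number of equally used genes that would give the same concentration) summarises this spread. For heavy chains it was 19.3 ± 4.06 in KRM Sham (SD, n = 4), 9.94 ± 3.41 in KRM RAS (n = 3), 11.6 ± 10.7 in CD11chiMϕ Sham (n = 3), 11.4 ± 3.20 in CD11chiMϕ RAS (n = 4) and 2.71 ± 1.32 in CD11cloMϕ RAS (n = 4), with 1.40 in the single CD11cloMϕ Sham library that could be read. For kappa chains it was 18.0 ± 5.78, 11.4 ± 3.63, 14.1 ± 14.97, 12.9 ± 3.55 and 2.82 ± 1.30 in the same order, and 1.59 ± 0.840 in CD11cloMϕ Sham (n = 2). Every readable CD11cloMϕ library stood below every library of the other populations in both chains. The means of CD11chiMϕ Sham rest on replicate 2, at 24.0 and 31.3, without which they were 5.46 and 5.41, and without replicate 1 those of KRM RAS were 11.4 for heavy and 13.2 for kappa chains. Depth differed too: the CD11cloMϕ libraries read here had 135 to 624 heavy variable counts and the other libraries 356 to 3642, and the part of depth in the effective number was not tested.

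**Figure D3:**
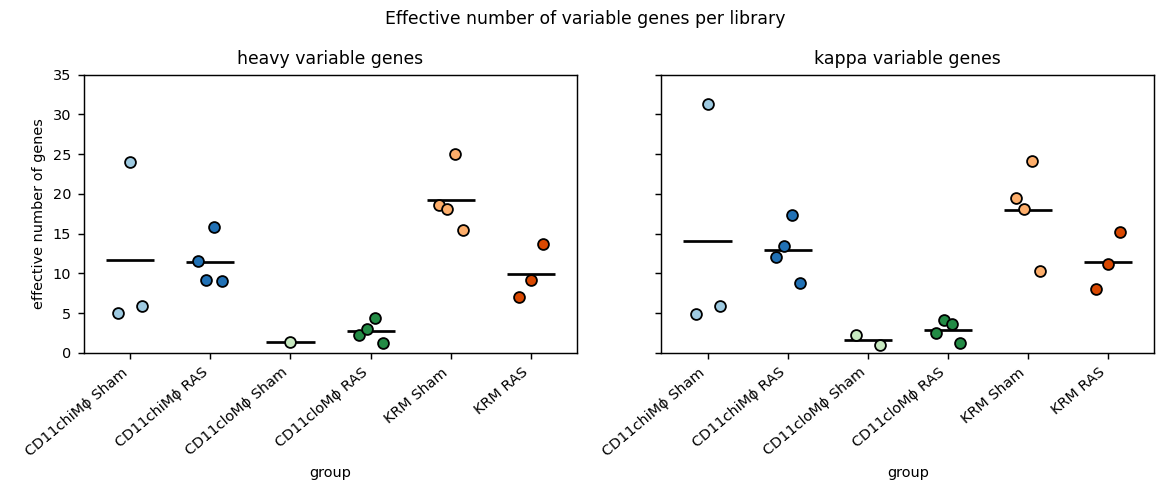
Each point is a library's effective number of heavy (left) or kappa (right) variable genes, by group, and each line is the group mean. CD11cloMϕ points lie between 1.00 and 4.34, and the KRM Sham means are 19.3 and 18.0.

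A particular heavy and a particular kappa gene led together. Ighv11-2 and Igkv14-126, whose sequences are printed above and whose pairing is known from phosphatidylcholine-binding antibodies of B-1 cells, both led their chains in 4 libraries: CD11chiMϕ Sham replicate 3, CD11chiMϕ RAS replicates 1 and 4 and KRM RAS replicate 1. They were both next to the leader in CD11cloMϕ RAS replicate 1. Divided by transcript length, Igkv14-126 still led in all 4 libraries, but Ighv11-2 led only in CD11chiMϕ Sham replicate 3 and RAS replicate 4. By that measure Ighv9-3 led in CD11chiMϕ RAS replicate 1 and Ighv1-80 in KRM RAS replicate 1. No other heavy gene led in more than 2 libraries, and no other kappa gene did. Ighv11-2 was at 45.5, 42.4, 16.5 and 78.6 CPM and Igkv14-126 at 138, 111, 42.5 and 160 CPM in the 4 libraries that they led. In KRM Sham replicates 1 to 3 both were low, with Ighv11-2 at 0, 0 and 0.5 estimated counts and Igkv14-126 at 11, 15 and 1 counts (1.26, 1.61 and 0.0538 CPM). KRM Sham replicate 4 was the exception, with Igkv14-126 at 17.4 CPM (5.46% of kappa counts) and Ighv11-2 at 0. CD11chiMϕ Sham replicate 1 and CD11cloMϕ Sham replicates 1 and 2 held no Ighv11-2 and at most 2 counts of Igkv14-126. Without KRM RAS replicate 1 the pair led in 3 libraries, all CD11chiMϕ. In the comparisons between groups that follow edgeR called neither gene, and DESeq2 called Ighv11-2 in the difference in RAS response between KRM and CD11chiMϕ.

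**Figure D4:**
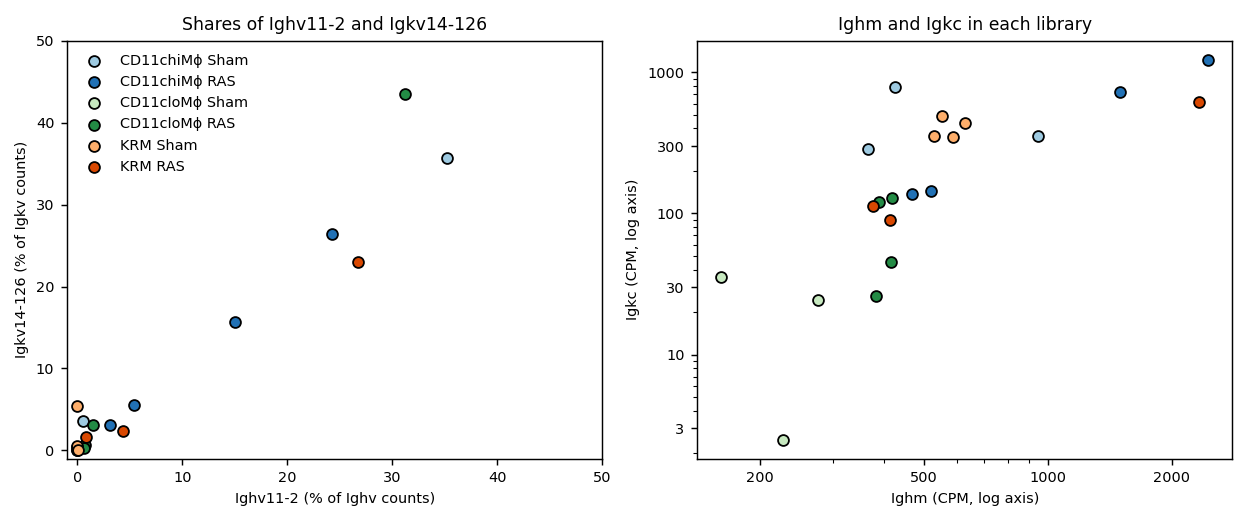
Left, the share of Ighv11-2 among heavy counts against the share of Igkv14-126 among kappa counts for the 19 libraries with at least 20 heavy counts; 5 libraries lie between 15.03% and 35.2% on the horizontal axis and the rest at or under 5.35%. Right, CPM of Ighm against CPM of Igkc in 21 libraries on log axes; CD11cloMϕ Sham lies lowest for Ighm, and KRM RAS replicates 2 and 3 lie below KRM Sham.

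The overlap of usage described how alike whole libraries were. Apart from replicates 1 and 2, pairs of KRM Sham libraries shared 34.7% to 48.5% of their usage. Pairs of CD11chiMϕ RAS libraries shared 27.1% to 40.6%, of CD11chiMϕ Sham 19.6% to 30.2% and KRM RAS replicates 2 and 3 42.0%, with 17.4% and 21.6% for the pairs that hold KRM RAS replicate 1. Pairs of CD11cloMϕ RAS libraries shared 1.57% to 5.55%, the least of these groups. CD11cloMϕ Sham pairs, which have libraries under 200 variable counts, shared 0%, 0% and 3.70%. Libraries of the same surgery and replicate number but another population shared 0.448% to 49.1%, with a median of 24.8% over 15 pairs, beside 0.275% to 50.3% and a median of 17.5% for the 109 pairs that shared neither group nor number.

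**Figure D5:**
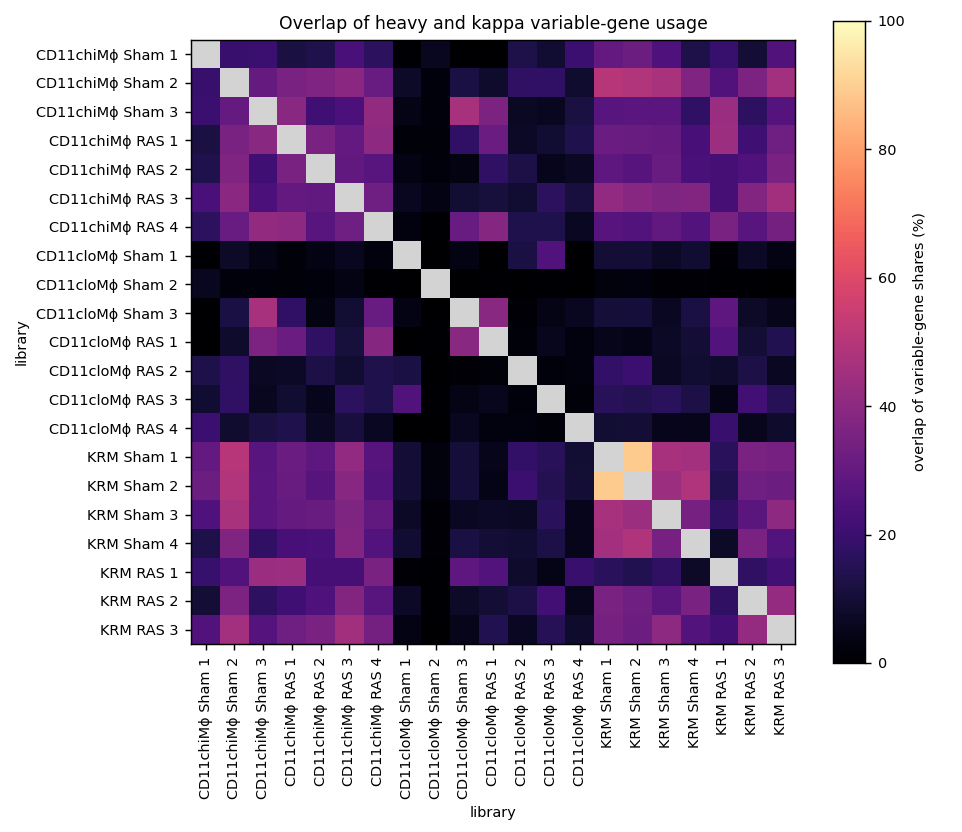
Colour gives the overlap, in percent, of heavy and kappa variable gene shares between each pair of 21 libraries, with the diagonal in grey. KRM Sham replicates 1 and 2 stand out at 89.1%, and pairs of CD11cloMϕ RAS libraries are dark at 1.57% to 5.55%.

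Members were then compared between groups with edgeR, whose two-sided quasi-likelihood test was run over the whole table with Benjamini-Hochberg adjustment over all genes tested and a call at an adjusted p of 0.05. A member could pass the filter on low counts through the group where it was high, so the counts over members are descriptions. The comparisons of KRM and CD11chiMϕ with CD11cloMϕ in Sham share control libraries, as do those that use KRM Sham. Percentages of all genes called are given beside the members' counts for the background. They are not set beside the counts from other settings, from DESeq2 or from fits without a library. Those counts describe only how the calls depend on processing.

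KRM Sham held more immunoglobulin RNA than CD11cloMϕ Sham. Of 56 members tested 47 were called, against 41.9% of all 12365 genes, and all 47 were higher (19.5% of all genes) with 0 lower (22.4%). Ighm was higher by 1.36 on the log2 scale (SE 0.20, adjusted p = 9.20e-04 by edgeR), at 575 ± 43.5 CPM (SD, n = 4) against 222 ± 58.2 (n = 3), and without overlap between the groups. Igkc was higher by 4.25 on the log2 scale (SE 0.74, adjusted p = 0.00245 by edgeR), and the plasma cell gene Jchain, no member, by 4.66 (SE 1.00, adjusted p = 0.00664 by edgeR). Iglv1 rose by 5.35 (SE 0.79, adjusted p = 0.00106) and Iglc2 by 3.86 (SE 0.96, adjusted p = 0.0126), both by edgeR. In a joint fit of all 6 groups Ighm and Iglv1 were not called, while Igkc and Iglc2 were.

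Most of the 47 called members were not read at all in CD11cloMϕ Sham. For 36 of them the CD11cloMϕ Sham counts were 0, so fitted fold changes are no bounds, and folds were taken against a floor of 3 counts per library. Igkv6-23 was at least 75.8-fold higher in KRM Sham (11.7, 9.12, 0 and 80.4 CPM), and at least 20.8-fold without replicate 4. Its call was lost without any 1 of the CD11cloMϕ Sham libraries (edgeR adjusted p = 0.0605 to 0.0949), and without KRM Sham replicate 1, 2 or 4 it did not pass the filter on low counts. Igkv8-21 was higher by at least 67.1-fold (32.6, 37.7, 18.1 and 1.25 CPM) and Igkv1-110 at least 61.96-fold (19.3, 11.2, 37.7 and 14.4 CPM). Igkv3-2 was at least 41.5-fold and Igkv3-4 at least 34.5-fold higher. Igkv8-21 and Igkv3-2 were not called in a joint fit of all 6 groups. The median fitted log2 fold change of the members tested was 8.67, or 4.45 with such genes at their bound, beside −0.036 over all genes. Ighg1 was called too, with 88, 78, 0 and 311 counts in KRM Sham against 0, 0 and 1, so that the groups overlapped. It was not called without KRM Sham replicate 1, 2 or 4, or without CD11cloMϕ Sham replicate 1 or 2. Without KRM Sham replicate 1 the called members numbered 29, without replicate 2 they numbered 28, and with both summed 29, while the block on replicate number gave 49. The 9 members that were not called included Ighv6-3, at a mean of 1.76 CPM in KRM Sham against 5.94 CPM, and Igkv19-93, at 1.07 against 6.14 CPM, both carried by a single CD11cloMϕ Sham library. The others were Ighmbp2, Ighv1-82, Igkv10-96, Igkv12-89, Igkv14-126, Igkv9-123 and Iglc3. Marker lists also differed here: 9 of 10 macrophage genes tested were higher and 1 was lower in KRM Sham, as were 4 and 1 of 10 plasma cell genes and 2 and 2 of 5 B cell genes. Their part in the immunoglobulin values was not tested.

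CD11chiMϕ Sham held more of 3 members than CD11cloMϕ Sham. Of 12 members tested 3 were called (1.52% of all genes), all of them higher (0.917%) and 0 lower (0.603%). Igkv3-2 was at 61.3, 17.0 and 37.7 CPM against 0 in all 3 CD11cloMϕ Sham libraries, at least 116-fold higher (edgeR adjusted p = 0.0348). Ighv1-53 was at 11.4, 19.8 and 15.5 CPM against 0, at least 46.7-fold higher (edgeR adjusted p = 0.0220). Igkv6-15 had 1517 counts against 2, a ratio of 761 (counting interval 210 to 6290, edgeR adjusted p = 0.0208). Each stood at or under 2 counts in every CD11cloMϕ Sham library. Igkc did not pass, with a log2 difference of 4.57 (SE 0.99, edgeR adjusted p = 0.0880), and Ighm, with 1.54 (SE 0.53, edgeR adjusted p = 0.202), did not pass either. With the replicate number as a block 5 members were called, which added Ighv8-8 and Igkc. Leaving out any library but CD11chiMϕ Sham replicate 3 left 0 calls, and leaving out that one gave 9.

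KRM Sham and CD11chiMϕ Sham, the populations with most immunoglobulin RNA in Sham kidneys, differed in single kappa genes. Of 67 members tested 5 were called (5.13% of all genes), of which 4 were higher in KRM (1%) and 1 was lower (4.13%). Igkv5-39 was at 3.43, 3.97, 10.3 and 11.0 CPM in KRM Sham against 0.102, 0 and 0 CPM, and Igkv8-19 at 15.3, 12.7, 6.45 and 3.13 CPM against 0, 0.114 and 0 CPM. With 364 and 402 counts against 1 each, their ratios were 212 (counting interval 37.9 to 8411) and 235 (41.9 to 9287), with edgeR adjusted p of 0.00996 and 0.0119. Igkv3-4 had 25, 34, 379 and 184 counts against 1 in all (edgeR adjusted p = 0.0196) and Igkv4-50 had 194 against 0, at least 11.4-fold higher (edgeR adjusted p = 0.0366). Igkv6-15 was lower by 1.97 on the log2 scale (SE 0.43, edgeR adjusted p = 0.0460), at 20.1, 15.99, 13.4 and 7.31 CPM against 88.9, 40.9 and 34.1 CPM. None of these 5 genes overlapped between the groups, but they were named because they were called, so this is no separate support.

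In that comparison the constant genes did not pass. Ighm differed by −0.11 (SE 0.40, edgeR adjusted p = 0.873) and Igkc by −0.24 (SE 0.34, edgeR adjusted p = 0.665). Without CD11chiMϕ Sham replicate 3, which held 946 CPM of Ighm, Ighm was higher in KRM by 0.59 (edgeR adjusted p = 0.0332). With the replicate block 2 members were called, Ighv9-3 and Igkv8-19. Igkv6-15 lost its call in 10 of 15 alternatives. Igkv4-50 kept its call in 6 of 15, and was not called without KRM Sham replicate 1, 2, 3 or 4. Leaving out CD11chiMϕ Sham replicate 2 or 3 gave 12 or 9 calls, and leaving out KRM Sham replicate 1, 2 or 4 gave 3. Without CD11chiMϕ Sham replicate 1 there were 4 calls (Igkv12-41, Igkv4-68, Igkv5-39 and Igkv8-24), of which only Igkv5-39 was among the 5.

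After RAS, 13 variable genes were lower in KRM, and 4 of them were at 0 in every KRM RAS library. Of 76 members tested 14 were called (9.7% of all genes), of which 13 were lower in KRM RAS (1.94%) and 1 was higher (7.77%). Ighv1-72 was at 8.74, 7.88, 4.91 and 10.7 CPM in KRM Sham and at 0 in all 3 KRM RAS libraries, at least 25.6-fold lower (edgeR adjusted p = 0.0117). Igkv13-84 was at 2.52, 2.58, 15.7 and 11.5 CPM against 0, at least 25.6-fold lower (edgeR adjusted p = 0.0291). Igkv5-39, at least 22.8-fold lower, and Igkv4-50, at least 12.1-fold lower, were also at 0 in all KRM RAS libraries (edgeR adjusted p = 0.0175 and 0.0299). The groups did not overlap for any of these, which is no separate support because they were named for being called. Igkv8-21, which led KRM Sham replicates 1 and 2, fell from 984 counts to 2, a ratio of 305 (counting interval 84.2 to 2520, edgeR adjusted p = 0.0270). Igkv10-96 fell by 4.24 on the log2 scale (SE 0.79, edgeR adjusted p = 0.0272), from 1291 counts to 44, and Ighv14-2 fell by 3.55 (SE 0.70, edgeR adjusted p = 0.0297), from 344 counts to 20. Igkv4-59 fell by 5.42 (SE 0.59, edgeR adjusted p = 0.0112), from 386 counts to 5. The others that were lower, each with 1 or 2 counts in KRM RAS, were Igkv8-19, Ighv1-9, Ighv1-75, Ighv1-34 and Ighv1-52. Other variable genes were still read, such as Igkv1-110 with 195 counts in KRM RAS against 1113, which was not called.

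The single member that was higher in KRM RAS was Ighv6-6. It was at 3.79, 2.31 and 1.96 CPM in KRM RAS and at 0 in every KRM Sham library, at least 9.43-fold higher (edgeR adjusted p = 0.0231). The members tested had a median log2 fold change of −1.65, beside 0.016 over all genes. Ighg1 had 477 counts in KRM Sham, all from replicates 1, 2 and 4, and 0 in KRM RAS, and did not pass (edgeR adjusted p = 0.0835). These calls depended on single libraries. Without KRM RAS replicate 1, 30 members were called, 28 of them lower, and all 14 kept their call. Without KRM Sham replicate 3, 26 were called. Without KRM Sham replicate 1, 2 or 4 the calls fell to 1 (Ighv1-9), 2 and 6, without KRM RAS replicate 2 or 3 to 2 and 4, and with KRM Sham replicates 1 and 2 summed to 2 (Ighv1-9 and Igkv4-59). Markers of other cells moved in the same comparison: 9 of 10 T and NK cell genes tested were higher and 1, Cd4, was lower in KRM RAS, with and without replicate 1. Their sum was 523 CPM in KRM RAS replicate 1, 82.7 and 75.9 CPM in replicates 2 and 3 and 79.9 to 111 CPM in KRM Sham, and without Cd4, which held most of the Sham sum, it was 462, 60.1 and 48.1 CPM against 3.22 to 4.23 CPM. The 6 tubule genes summed to 662, 4207 and 3116 CPM against 116 to 1143 CPM. Macrophage genes fell in 2 of 10 tested, and in 9 of 10 without replicate 1. Plasma cell genes rose in 1 of 11 and fell in 0, and without replicate 1 rose in 2 and fell in 6. B cell genes passed in 0 of 6 tested, and without replicate 1 rose in 3 and fell in 2 of 8. Their part in the immunoglobulin values was not tested.

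Ighm and Igkc of KRM did not pass between RAS and Sham, and the direction of Ighm turned on KRM RAS replicate 1. With all libraries Ighm differed by 0.77 (SE 0.60, edgeR adjusted p = 0.383) and Igkc by −0.67 (SE 0.63, edgeR adjusted p = 0.466). Without KRM RAS replicate 1, Ighm was lower in RAS by −0.65 (edgeR adjusted p = 0.00554) and Igkc by −2.11 (edgeR adjusted p = 2.03e-04). In that case replicates 2 and 3 held less of each than any KRM Sham library, as the values above show.

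In CD11chiMϕ and CD11cloMϕ no member passed between RAS and Sham. Of 55 members tested in CD11chiMϕ 0 were called by edgeR (0% of all genes), 8 had an unadjusted p under 0.05 (9.79% of all genes), and DESeq2 called 5, all higher in RAS: Ighg2c, Ighg3, Ighv9-3, Igkv3-4 and Iglv2. Igkv3-4 was at 0.102, 0 and 0 CPM in CD11chiMϕ Sham and at 79.1, 119, 6.13 and 22.8 CPM in CD11chiMϕ RAS. Of 6 members tested in CD11cloMϕ 0 were called by edgeR (0%), 2 had an unadjusted p under 0.05 (8.96% of all genes), and DESeq2 called Ighm. Ighm was at 401 ± 18.6 CPM (SD, n = 4) in CD11cloMϕ RAS against 222 ± 58.2 (n = 3), a log2 difference of 0.92 (SE 0.21, edgeR adjusted p = 0.553), and the groups did not overlap. The T and NK cell genes did not overlap either, in CD11cloMϕ (values above) or in CD11chiMϕ, where they summed to 23.6 to 55.2 CPM in Sham and 90.7 to 365 CPM in RAS, and their part was not tested. The 6 members tested were those that passed the filter on low counts: Ighm, Igkc, Iglc2, Iglc3, Iglv1 and Ighmbp2, which is no antibody gene. Leaving out Ighmbp2, 6 to 15 members had a count in a CD11cloMϕ Sham library.

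The change with RAS was then compared between populations by the interaction in edgeR. No member was called between KRM and CD11chiMϕ (0 of 107 tested, 0% of all genes), between KRM and CD11cloMϕ (0 of 78, with 0.245% of all genes called, 0.223% higher and 0.0216% lower) or between CD11chiMϕ and CD11cloMϕ (0 of 60, 0%). At an unadjusted p under 0.05 there were 22, 16 and 6 members (21.2%, 23.7% and 6.65% of all genes), and DESeq2 called 12, 16 and 4. Without KRM RAS replicate 1 the first of these gave 3 calls, Ighv9-3, Igkv3-4 and Igkv5-39, and the second 7. These calls thus depended on the tool and, where KRM was compared, on KRM RAS replicate 1.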

How the data were processed

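RNA of sorted kidney macrophages was sequenced in 21 libraries of 6 groups, which were taken from the sample labels. The study's text gives fewer RAS libraries of CD11chiMϕ and CD11cloMϕ than the labels and files hold, and all were used. Per the study's methods, libraries were made with an ultra-low-input kit and Nextera XT, which mark no strand, and the authors aligned paired reads to mm10 with OmicSoft OSA and Ensembl R83 gene models. The deposited count table held estimated counts per gene, of which 9.70% to 14.2% per library were not whole, and these were rounded for tests. A second deposited table held quantile-normalised TPM on a log2 scale per the values, which was used only to compare columns and for Igha, Ighd and Iglc1, whose counts were not analysed here. Reads of antisense or overlapping genes cannot be told apart. The members and lists were chosen with earlier results of these data known. The level of 1 further marker gene is not reported here.

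Rows with the same symbol were summed (3730 of 37620 rows shared a symbol, none of a member). CPM used the library total, 6891177 to 18592427 counts, and intervals and floors (3 counts for a count of 0) cover counting error only. Comparisons used edgeR 4.0.16 (R 4.3.3) with TMM and filterByExpr (minimum count 10, minimum total 15), quasi-likelihood testing of only the groups compared (4 groups for interactions) and Benjamini-Hochberg adjustment over all genes tested. The scripts were tested on simulated data. DESeq2 1.42.0, RLE size factors, library totals, a fit with no filter or with a minimum of 10 counts in each library, a joint fit of the 6 groups, a block on replicate number and leaving out each library were the alternatives; summing KRM Sham replicates 1 and 2 was added after seeing the data. In Sham, same-numbered libraries of different populations deviated together (correlations of deviations 0.201 to 0.647), so blocked counts stand beside those results where they change them. The named genes were the constant genes, the leading variable gene of each chain in each library (with the next one at 10% or more), the members at the edge of the total, and in each comparison up to 5 called members of each direction with the largest absolute log2 fold change; other called or uncalled members were named after their values were seen. Sequences and positions came from GRCm38 with GENCODE vM21.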

Additional observations from a re-analysis of the deposited data

Results flagged for a closer look

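Of 42 pairs of a group of 4 libraries and a measure, 6 had a library far from the other 3 by Dixon's test, where chance gives about 1 in 20. In CD11cloMϕ RAS, replicate 2 held 70.4 CPM of gamma constant genes, all of it Ighg2c, beside 0.321 to 2.01 CPM in the other 3 libraries. The same library held 23.0 CPM of lambda variable genes beside 0.226 to 1.28 CPM. CD11cloMϕ RAS replicate 1 held 20.8 CPM of Ighv11-2 beside 0.101 to 0.346 CPM, and 51.0 CPM of Igkv14-126 beside 0.101 to 0.808 CPM, so that the heavy and the kappa gene of the pair stood apart in the same library. In KRM Sham, replicate 4 held 17.4 CPM of Igkv14-126 beside 0.0538 to 1.61 CPM. Replicate 3 was flagged for Ighv11-2 at 0.0269 CPM beside 0 in the others, which is 0.5 estimated counts and below the limit that a count of 0 allows.

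Igha, Ighd and Iglc1, the constant genes of IgA, IgD and a lambda chain, had values only in the log2 table, where some RAS libraries stood above all Sham libraries of their population. Igha was at 8.37 in CD11cloMϕ RAS replicate 1 (0.71 to 7.55 in Sham). Ighd was at 2.27 in CD11chiMϕ RAS replicate 1 (2.02 to 2.16) and at 1.83, 2.25 and 1.29 in CD11cloMϕ RAS replicates 1, 3 and 4 (0.50 to 0.91). Iglc1 was at 8.76 and 9.09 in CD11chiMϕ RAS replicates 1 and 2 (3.02 to 7.72) and at 6.86 in CD11cloMϕ RAS replicate 2 (2.06 to 5.02). The column named for KRM RAS replicate 1 gave 11.2 for Igha (10.5 to 10.99 in KRM Sham), 5.14 for Ighd (2.55 to 3.19) and 10.02 for Iglc1 (7.26 to 8.74), but that column did not correspond to the count column of the same name. Other RAS libraries stood below all Sham libraries of their population. Igha was at 5.57 and 6.50 in KRM RAS replicates 2 and 3 and at 4.23 and 6.34 in CD11chiMϕ RAS replicates 3 and 4 (from 7.29 in Sham). In the same KRM RAS replicates Iglc1 was at 4.59 and 1.44 and Ighd at 0.58 and 0.95. Ighd was at 0.56, 0.84 and 1.30 in CD11chiMϕ RAS replicates 2, 3 and 4 and at 0.32 in CD11cloMϕ RAS replicate 2. Iglc1 was at 0.58 in CD11chiMϕ RAS replicate 4 and at 1.45 and 0.87 in CD11cloMϕ RAS replicates 1 and 4. These differences were not tested.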

How the results depend on the processing

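RLE size factors, library totals and no filter kept every count of called members within 1.5 times its value. In KRM RAS against Sham, at least 10 counts in every library left 0 calls, a fit over all 6 groups 5, the replicate block 2, DESeq2 38 and the summed KRM Sham replicates 2, and leaving out a library gave 1 to 30. In KRM against CD11chiMϕ the same settings gave 1, 1, 2, 13 and 3, and 3 to 12 without a library. In KRM against CD11cloMϕ at least 10 counts gave 2, the 6-group fit 29 and the summed replicates 29, with 28 to 49 without a library. In CD11chiMϕ against CD11cloMϕ at least 10 counts gave 0, and the 6-group fit, the block and DESeq2 gave 5, 5 and 25, with 0 to 9 without a library. DESeq2 called 5 members in CD11chiMϕ RAS against Sham, 1 in CD11cloMϕ, and 12, 16 and 4 in the interactions, which gave 0 to 3 (KRM with CD11chiMϕ), 0 to 7 (KRM with CD11cloMϕ) and 0 without a library. The block gave 0 calls in both CD11chiMϕ and CD11cloMϕ RAS against Sham; there same-numbered libraries did not deviate together in every pair (correlations −0.196 to 0.325), so the samples were taken to share only a number. The causes were not tested, except that the 10-count filter tests fewer genes.

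On the log2 scale, signs turned for Ighm in KRM RAS without KRM RAS replicate 1 (−0.65, of −0.65 to 1.13 over libraries left out), for Igkc in CD11chiMϕ RAS without RAS replicate 2 (−0.59) or Sham replicate 1 (−0.0086, of −0.59 to 0.73), for Ighm in KRM against CD11chiMϕ with the replicate block (0.13) or without CD11chiMϕ Sham replicate 3 (0.59, of −0.35 to 0.59), and for Igkc there without CD11chiMϕ Sham replicate 2 (0.25, of −0.49 to 0.25). Without Ighm the mean immunoglobulin sum was 49.9 CPM in CD11cloMϕ Sham, 219 in CD11cloMϕ RAS and 1005 in KRM Sham. Counted by subgroup, the median leading heavy share was 58.2%. Depth limits most CD11cloMϕ Sham replicates 2 and 3, where 11 and 10 heavy variable counts cannot show a leading gene's share with precision.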
